A study of Mus musculus with 70 samples.

Results

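Immediate early genes are genes that cells switch on within minutes of a stimulus, before new protein is made. The 10 followed here are Fos, Fosb, Jun, Junb, Egr1, Egr2, Egr3, Nr4a1, Arc and Npas4, taken by gene symbol from 2 count tables of mouse tumours. All 10 were found among the 53379 rows of the first table and the 37954 mouse gene rows of the second. Fos and Fosb pair with Jun and Junb to form AP-1, a transcription factor that binds DNA as a dimer. Egr1, Egr2 and Egr3 are zinc finger transcription factors, and Nr4a1 is an orphan nuclear receptor. Arc encodes a protein of the synapse, and Npas4 encodes a transcription factor that neurons induce through calcium entry. Growth factors acting through ERK kinases and the factor SRF induce many of these genes, and in neurons, granule cells of the cerebellum included, electrical activity induces them through calcium and the factor CREB.

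Bulk polyadenylated RNA was measured in 70 libraries labelled as mouse medulloblastoma of the Sonic hedgehog (SHH) type, a tumour of cerebellar granule neuron progenitors. In the first table, tumours arose from Math1-Cre, which acts in those progenitors, and SmoM2, an active Smoothened. Of these, 7 libraries were labelled Kcnb2 wild-type and 3 Kcnb2 knockout, all carrying Math1-Cre and SmoM2. Kcnb2 is the gene of a potassium channel subunit gated by voltage. In the second table, every library carried a Ptch1 allele, the SB100 transposase and Cre, both under Nestin, a Cre-dependent PBERT2 transposase at Rosa26, and the Lazy Piggy transposon. Tamoxifen activates PBERT2, which can move the transposon again, and 29 libraries were labelled as treated with tamoxifen and 30 as not treated. A further library with no treatment label entered no comparison.

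SmoM2 libraries held 23923453 to 39387125 counts each, and Lazy Piggy libraries 5869618 to 8667344. Levels are in CPM, a gene's counts per 1000000 counts of the library after TMM scaling, which corrects for differences in composition between libraries. Hedgehog and granule progenitor markers were present in every labelled library. Atoh1, a factor that defines these progenitors, lay at 64.4 to 157 CPM in SmoM2 tumours and at 33.8 to 437 CPM in Lazy Piggy tumours. Kcnb2 itself was at 9.91 to 13.8 CPM in the 3 knockouts and at 22.5 to 50.5 CPM in 6 libraries labelled wild-type. In the library labelled wild-type replicate 3 it was at 8.30 CPM, the lowest of all 10. The title of that library ends like the titles of the knockouts. Its column heading in the counts ends like those of the other wild-types with numbered titles. The permutation tests of Arc and Npas4 and the fold changes of Fos, Fosb, Egr3 and Nr4a1 are given with and without that library. The other fold changes of the main knockout fit include it. The labels do not say that libraries came from separate mice, so p-values measure the spread between libraries.

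The stretch before each gene's start site is shown first, since CREB and SRF act there in the textbook account and since several of the genes rose and fell together across tumours. A RefSeq stretch on the mouse build GRCm38.p6 was used for 7 of the 10 genes, and none for Egr1, Egr3 and Arc. The 250 bases before the start follow for the 3 genes that moved together most closely in treated tumours (Fos, Junb, Nr4a1) and for Jun, which did not follow Fos. They also follow for Fosb and Npas4, which had the highest ratios of largest to median CPM among these 7 in labelled Lazy Piggy tumours. Capitals mark TGACG, the core letters of a CREB site, on either strand (CGTCA on the other), and in Fos the letters TATAAA.
Fos (chr12:85473640-85473889, plus strand): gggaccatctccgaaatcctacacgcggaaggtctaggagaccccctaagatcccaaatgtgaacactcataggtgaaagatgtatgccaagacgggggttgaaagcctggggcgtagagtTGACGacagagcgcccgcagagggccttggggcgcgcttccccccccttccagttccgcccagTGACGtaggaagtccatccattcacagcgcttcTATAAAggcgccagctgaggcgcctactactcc
Junb (chr8:84978749-84978998, minus strand): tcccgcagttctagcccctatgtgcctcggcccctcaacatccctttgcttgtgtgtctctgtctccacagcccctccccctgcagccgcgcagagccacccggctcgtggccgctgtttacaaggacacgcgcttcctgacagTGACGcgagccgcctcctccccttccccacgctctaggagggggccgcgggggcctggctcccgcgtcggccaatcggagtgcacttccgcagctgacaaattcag
Nr4a1 (chr15:101266596-101266845, plus strand): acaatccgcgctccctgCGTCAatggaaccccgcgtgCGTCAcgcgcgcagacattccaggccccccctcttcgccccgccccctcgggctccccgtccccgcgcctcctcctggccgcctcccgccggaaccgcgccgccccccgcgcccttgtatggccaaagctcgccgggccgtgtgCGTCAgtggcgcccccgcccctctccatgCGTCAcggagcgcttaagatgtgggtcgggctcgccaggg
Fosb (chr7:19310046-19310295, minus strand): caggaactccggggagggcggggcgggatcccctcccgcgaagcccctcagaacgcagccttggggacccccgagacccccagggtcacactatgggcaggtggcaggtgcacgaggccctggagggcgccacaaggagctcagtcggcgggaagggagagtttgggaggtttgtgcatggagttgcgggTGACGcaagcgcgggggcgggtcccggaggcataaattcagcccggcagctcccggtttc
Npas4 (chr19:4989972-4990221, minus strand): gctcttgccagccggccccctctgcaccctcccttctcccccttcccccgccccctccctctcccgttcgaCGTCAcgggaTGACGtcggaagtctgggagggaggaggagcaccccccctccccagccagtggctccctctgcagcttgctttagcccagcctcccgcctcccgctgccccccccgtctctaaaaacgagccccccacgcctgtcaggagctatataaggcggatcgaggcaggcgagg
Jun (chr4:95052223-95052472, minus strand): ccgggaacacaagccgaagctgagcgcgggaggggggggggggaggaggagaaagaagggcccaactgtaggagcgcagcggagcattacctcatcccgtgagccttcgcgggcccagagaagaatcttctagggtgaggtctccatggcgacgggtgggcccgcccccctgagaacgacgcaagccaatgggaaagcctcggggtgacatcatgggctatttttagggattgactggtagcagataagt
TGACG lay on either strand in the stretches of 6 of the 7 genes, Egr2 being the other one beside the 5 marked here, against 17.8% of all 32851 such stretches. Jun was the exception. Egr2 held TGACG though, like Jun, it had no relation to Fos past the threshold in either tamoxifen group. Egr2 had 5 stretches, not all with TGACG, so the counts here are by gene and the shares of all are by stretch. Fos held copies ending 125 and 62 bases before the start, and Nr4a1 held 4 copies, the nearest ending 36 bases before it. In Npas4 the copies lay on opposite strands, ending 175 and 165 bases before the start. The whole CREB site TGACGTCA, which contains TGACG, was in none of the 7 against 1.55% of all stretches, and the AP-1 letters TGANTCA were in none against 6.75%. The CArG box of SRF was in Egr2 alone of the 7, against 1.47%. Sites farther than 250 bases before the start were outside this search. TATAAA was in Fos alone, against 12.4% of all stretches on either strand. These are matches of letters, and binding was not measured.

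Jun was by far the most abundant of the 10 genes in both models when levels were set per kilobase of exon. Its median was 34.2 CPM per kilobase in the 10 SmoM2 tumours, with a range of 29.1 to 40.6. The next gene, Fos, had a median of 3.44 with a range of 1.23 to 6.48, so no SmoM2 tumour brought another of these genes near Jun. Nr4a1 (2.66), Junb (2.45) and Egr1 (2.21) followed, and their ranges overlapped each other and that of Fos. Egr2 (1.05), Arc (0.557), Egr3 (0.373) and Npas4 (0.355) were lower, again with overlapping ranges between neighbours. Fosb was lowest at 0.0745 CPM per kilobase, with 4 to 29 counts in a library.

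In the 59 labelled Lazy Piggy tumours Jun again led, at a median of 46.4 CPM per kilobase and a range of 20.2 to 62.6. Junb (4.16) and Egr1 (3.83) came next, ahead of Egr2 (1.92), Fos (1.82) and Nr4a1 (1.79), and the ranges of these 5 overlapped. Arc (0.756), Npas4 (0.244), Egr3 (0.118) and Fosb (0.0849) were lowest. Egr3 had no count in 5 tumours and Fosb none in 1. The tables differ in depth and in their rows and were not tested against each other. Side by side, the median of Fos was 8.09 CPM in SmoM2 tumours and 4.27 CPM in Lazy Piggy tumours, and the ranges overlapped. The order of Fos, Nr4a1, Junb and Egr1 differed between the models, while Jun was highest and Fosb lowest in both.

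**Figure D1:**
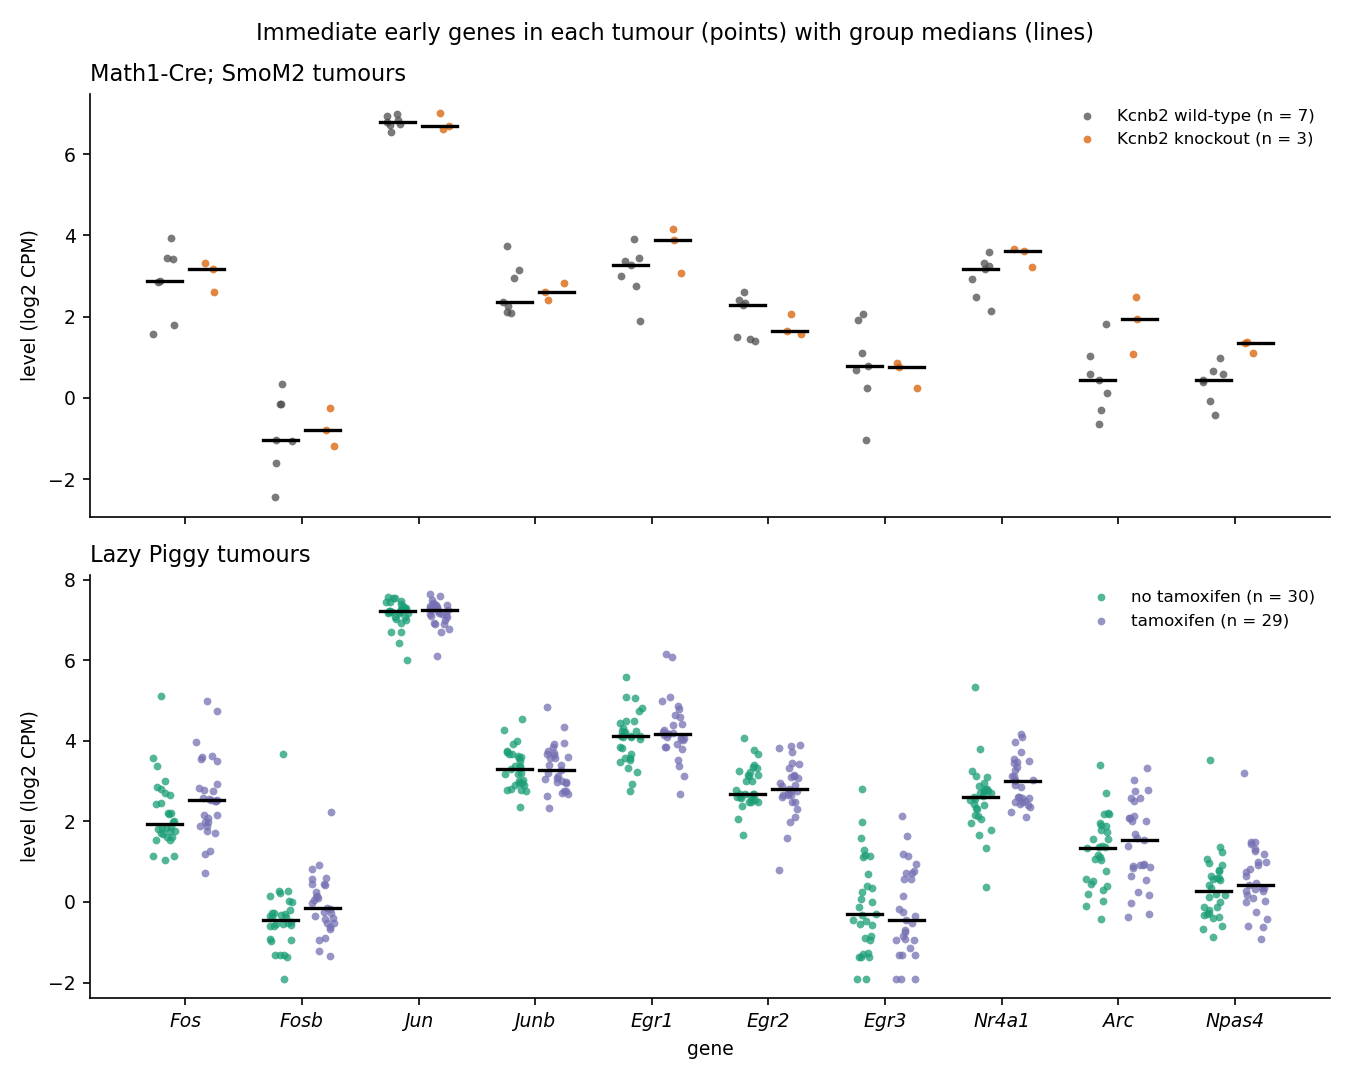
Level of each gene (log2 CPM) in each tumour, as points, with a line at the group's median; SmoM2 tumours above, Lazy Piggy tumours below. Jun has the highest median in all 4 groups. With tamoxifen the highest Egr1 point, at 70.8 CPM, lies above the lowest Jun point, at 68.1 CPM. Single no tamoxifen points stand high in Fos, Fosb, Nr4a1 and Npas4.

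Within each of 3 groups, 8 of the 10 genes varied more between tumours than the median gene of like level. Fos, Egr1, Arc, Junb, Nr4a1 and Egr2 did so in all 3 groups. Spread was measured as the SD of log2 CPM within a group and set beside all tested genes whose mean lay within 0.5 of the gene. For Fos the SD was 0.882 in the 7 wild-types, 0.841 without tamoxifen and 0.988 with it, where the median of genes of like level was 0.404, 0.578 and 0.547. Of those genes, 89.8%, 77.5% and 85.3% had a smaller SD than Fos. Egr1 exceeded 79.9%, 85.1% and 89.6% of its like, and Arc 77.8%, 72.3% and 85.1%. The shares were 74.3%, 56.0% and 67.8% for Junb, 66.5%, 79.0% and 62.2% for Nr4a1, and 56.8%, 51.4% and 72.2% for Egr2. Egr3 and Fosb, at few counts in Lazy Piggy tumours, were at 47.4% and 15.6% without tamoxifen and 9.09% and 37.5% with it, beside 89.3% and 83.8% in wild-types. Npas4 was at 37.9%, 51.6% and 70.8%. In Lazy Piggy tumours these 3 genes did not pass the low-count filter while their genes of like level did, so the comparison is unequal. With tamoxifen those genes numbered 11 for Egr3 and 32 for Fosb. With a prior count of 0.5 in log2 CPM, Npas4 was at 44.5% without tamoxifen, and 7 of the 10 exceeded the median there. Jun had the smallest SD of the 10 in each group (0.148, 0.336 and 0.307), but against genes of its own high level it exceeded 30.9% in wild-types, 78.7% without tamoxifen and 65.6% with it.

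Deletion of Kcnb2 was compared in the SmoM2 tumours to ask which genes differ without the channel. In bulk RNA, fewer cells of a type and less RNA per cell cannot be told apart. All 3 knockouts and 3 of 7 wild-type libraries have titles that begin with a number, and the fit held this title form as a covariate, so that its fold changes compare those 6 libraries. None of the 10 genes passed an adjusted p of 0.05 in edgeR's quasi-likelihood test, and neither did any of the 19864 genes tested (0.0%). At an unadjusted p under 0.05 none of the 10 passed either, against 8.47% of all genes (1683), of which the higher ones were 4.48%. DESeq2 called 3 genes higher and 7 lower, none of them among the 10. The median log2 fold change of the 10 was 0.51, with 8 above 0, beside 0.0017 and 50.2% for all genes. By the plain mean of log2 CPM over all 10 libraries, 6 of the 10 were higher in knockouts.

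Arc had the largest fitted difference. The knockouts had 5.56, 3.76 and 2.04 CPM of Arc, and the libraries labelled wild-type had 1.98, 1.02, 1.30, 3.44, 0.570, 1.43 and 0.752 CPM in replicates 1 to 7. The knockouts lay above all 3 wild-types with numbered titles, but wild-type replicate 4 reached into their range. The log2 fold change was 1.40 with an SE of 0.64 and an adjusted p of 0.566 in edgeR's test. An exact two-sided permutation test of mean log2 CPM, over the 120 splits of 3 against 7, gave a difference of 1.40 and p = 0.0333. It pooled wild-types of both title forms and was not adjusted for the 10 genes so tested. The smallest p it can give is 0.0167. The exact p was 0.0476 when the library labelled wild-type replicate 3 was left out.

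Npas4 was the one gene of the 10 whose knockouts lay above every library labelled wild-type. Its knockouts had 2.08, 2.46 and 2.51 CPM, and the wild-types had 0.675 to 1.92 CPM with a median of 1.29. The library labelled wild-type replicate 3 was at 1.51 CPM and replicate 7 at 1.92 CPM. Counting replicate 3 as a knockout would therefore end the separation. Among all tested genes the 3 knockouts lay above the 7 wild-types in 1.67% and below them in 2.79%. None of the 10 lay below. These levels rest on 70 to 100 counts in the knockouts and 17 to 51 in the wild-types. The log2 fold change was 0.74 with an SE of 0.36 and an adjusted p of 0.566 in edgeR's test. The exact permutation test gave a difference of 0.91 on the log2 scale and p = 0.0167, and p = 0.0238 without the library labelled wild-type replicate 3.

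Egr1 and Nr4a1 pointed upward in the knockouts but overlapped the wild-types. For Egr1 the knockouts had 14.6, 17.8 and 8.40 CPM against a wild-type range of 3.64 to 14.9 and a median of 9.57, with a log2 fold change of 0.80 (SE 0.44, adjusted p = 0.573 in edgeR). For Nr4a1 they had 9.25, 12.2 and 12.7 CPM against 4.37 to 12.0 and a median of 8.98, with a log2 fold change of 0.52 (SE 0.35, adjusted p = 0.622 in edgeR). In both genes the highest wild-type lay above the lowest knockout.

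The AP-1 genes showed no common direction. Fos stood at 5.98, 8.86 and 9.91 CPM in the knockouts, inside the wild-type range of 2.89 to 15.2, whose highest value came from the library labelled wild-type replicate 3. Its log2 fold change was -0.25 (SE 0.54) with all 10 libraries and 0.21 without that library. Fosb had a log2 fold change of 1.04 (SE 0.53, adjusted p = 0.566 in edgeR) against the wild-types with numbered titles, yet its group means over all libraries were 0.554 ± 0.202 CPM (SD, n = 3) in knockouts and 0.586 ± 0.386 CPM (SD, n = 7) in wild-types. Without the title covariate that value was -0.06. Jun was at 111 ± 16.4 CPM (SD, n = 3) in knockouts and 112 ± 11.2 CPM (SD, n = 7) in wild-types, and Junb at 6.10 ± 0.873 and 6.84 ± 3.31 CPM. Egr2 (log2 fold change -0.19, SE 0.38) and Egr3 (0.50, SE 0.51) overlapped too.

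**Figure D2:**
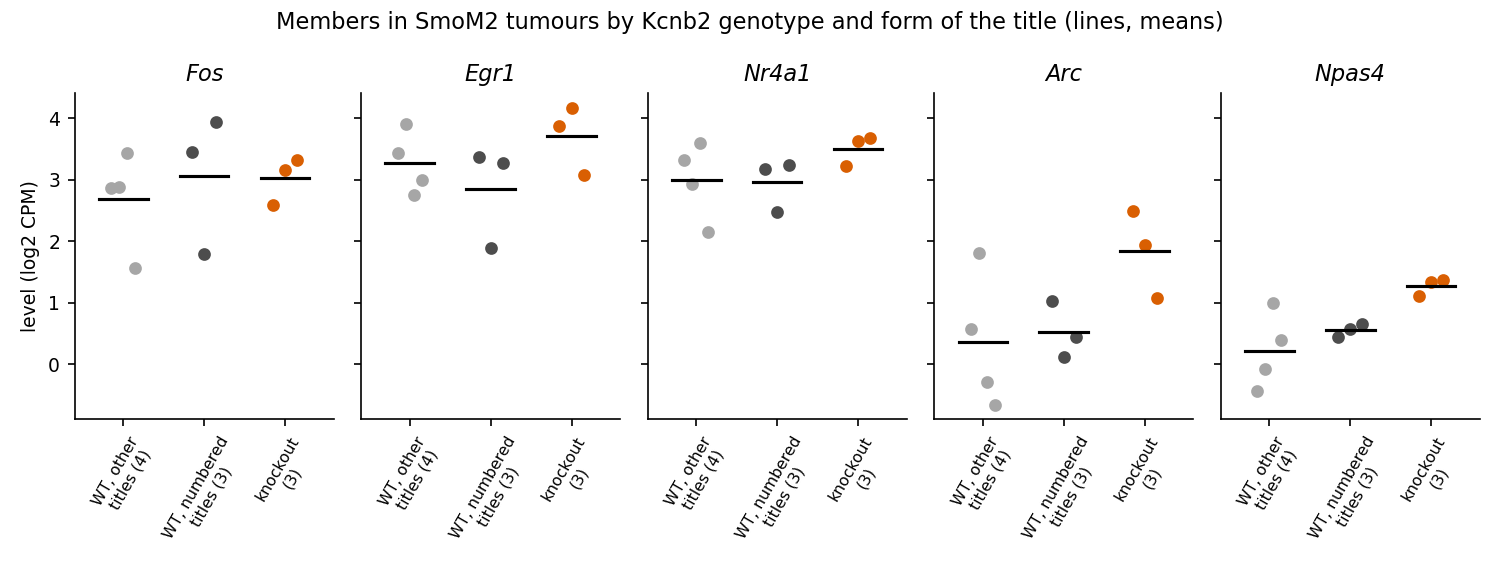
Level (log2 CPM) of 5 genes in SmoM2 tumours, each point 1 library and each line the mean of a column; wild-types (WT) are split by whether the title begins with a number. Only in Npas4 do the 3 knockouts lie above all 7 libraries labelled wild-type, and in Arc 1 wild-type of the other titles reaches their range.

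Markers of several cell types differed in direction in knockouts, none past the test, and the libraries with the highest mature cerebellum markers were those with the highest Arc. The mature cerebellum score is the mean log2 CPM of 23 genes marking mature granule neurons, Purkinje cells and interneurons, or oligodendrocytes. It was 7.08, 7.07 and 5.73 in knockout replicates 1 to 3, in the order of their Arc above, and 7.04 in wild-type replicate 4, which had the highest Arc of the wild-types. The other 6 wild-types had scores from 1.39, in replicate 5 with the lowest Arc, to 5.71, in the library labelled wild-type replicate 3. All 7, 8 and 8 genes of the granule neuron, Purkinje and oligodendrocyte lists had positive fold changes, with medians of 1.63, 1.59 and 1.65, and none passed the test. All 8 cell cycle genes and all 8 pericyte and fibroblast genes were negative, with medians of -0.47 and -0.66. All 3 knockouts were female by Y-linked genes, against 4 of 7 wild-types, and with sex as a covariate the fold change was 1.72 for Arc (adjusted p = 0.343 in edgeR) and 0.66 for Npas4 (adjusted p = 0.436). Summed granule neuron markers ran from 629 to 1565 CPM in knockouts and from 136 to 1015 CPM in wild-types. The part of these markers in the Arc difference was not tested. Npas4 was at 0.878 CPM in wild-type replicate 4, below every knockout, at a score like theirs.

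Genes around the 10 gave no called change in the knockouts either. Of 18 other immediate early regulators 10 had positive fold changes (median 0.17), and of 17 feedback and brake genes, which shut the response down, 10 did (median 0.06). Of 8 neuronal activity effectors, secreted or synaptic products such as Bdnf and Vgf, 7 did (median 0.84). Of 21 upstream factors and kinases, 12 did (median 0.10). The smallest p among these genes belonged to Dusp6, a phosphatase of ERK, at a log2 fold change of -0.77 (SE 0.21, adjusted p = 0.566 in edgeR), and Dusp5, another ERK phosphatase, went the other way at 0.68 (SE 0.20, adjusted p = 0.566); both are named after their values were seen.

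Tamoxifen was compared in the Lazy Piggy tumours to ask what changes when the transposon can move again. The low-count filter kept 7 of the 10 genes, dropping Fosb, Egr3 and Npas4. None of the 7 passed an adjusted p of 0.05 in edgeR's test, against 3.65% of the 13735 genes tested (420 higher, or 3.06%, and 81 lower, or 0.59%), and none passed at an unadjusted p under 0.05, against 19.5%. DESeq2 also called none of the 7. All 7 fold changes were above 0, with a median of 0.26, beside -0.013 and 45.9% for all genes. Of these, Jun, Junb and Egr2 were within 0.05 of 0, and by the plain mean of log2 CPM Egr2 was at -0.036. Leaving out 1 control tumour, no tamoxifen replicate 16, made 2 of the 7 pass: Fos at a log2 fold change of 0.77 (adjusted p = 0.0468) and Nr4a1 at 0.54 (adjusted p = 0.0380), when 4.72% of 13717 genes passed. No other single tumour changed a call among the 7.

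Fos and Nr4a1, the pair that passed without replicate 16, overlapped between the groups. Fos ran from 1.79 to 34.5 CPM without tamoxifen, with a median of 3.53, and from 1.39 to 31.4 CPM with it, with a median of 5.47. Of the 29 treated tumours, 22 lay above the untreated median, yet the groups overlapped over nearly their whole range. The log2 fold change was 0.47 (SE 0.27, adjusted p = 0.335 in edgeR). Nr4a1 ran from 1.02 to 40.3 CPM (median 5.83) without and from 4.06 to 17.8 CPM (median 7.69) with tamoxifen, and 18 of 29 treated tumours lay above the untreated median. Its log2 fold change was 0.28 (SE 0.20, adjusted p = 0.468 in edgeR). On mean log2 CPM, the difference of Nr4a1 was 0.43, and a two-sided permutation test gave p = 0.0215. For Fos the difference was 0.41 and p = 0.0892. The same test gave p of 0.295 to 0.978 for Egr1, Arc, Egr2, Jun and Junb. None of these is adjusted for the 10 genes so tested.

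For Egr1 and Arc the fitted values were of like size to that of Nr4a1, and the group medians lay close together. Egr1 had medians of 17.1 CPM without and 17.7 CPM with tamoxifen and a log2 fold change of 0.26 (SE 0.18, adjusted p = 0.452 in edgeR). Arc had medians of 2.26 and 2.65 CPM and a log2 fold change of 0.30 (SE 0.27, adjusted p = 0.548 in edgeR). Jun (0.01, SE 0.08), Junb (0.03, SE 0.14) and Egr2 (0.01, SE 0.15) were within 0.05 of 0. For the 3 genes too low for the fit, the permutation test of mean log2 CPM gave 0.33 for Fosb (p = 0.133), -0.14 for Egr3 (p = 0.634) and 0.21 for Npas4 (p = 0.335).

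**Figure D3:**
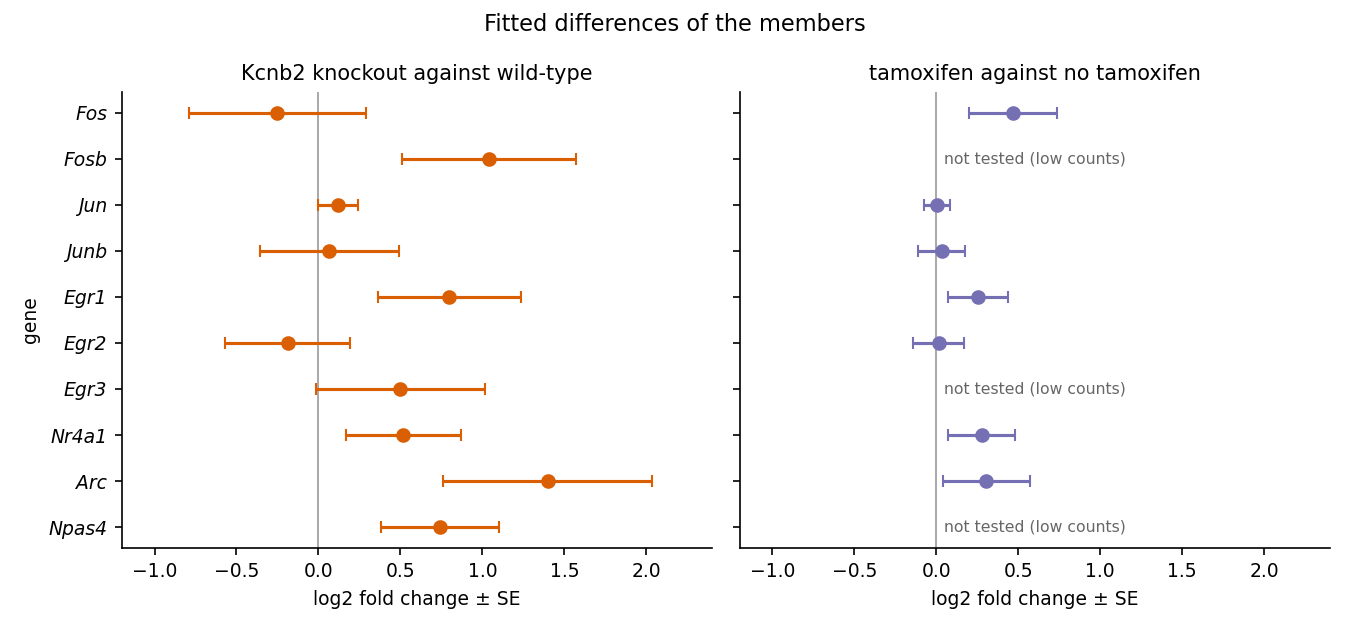
Fitted log2 fold change of each gene with its SE (bars) for Kcnb2 knockout against wild-type, on the left, and tamoxifen against no tamoxifen, on the right. Arc is farthest from 0 on the left at 1.40, and the 7 values on the right lie between 0.01 and 0.47.

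Titles of the Lazy Piggy libraries hold dates of unstated meaning, and the comparison was repeated in an earlier and a later period of these dates. Among earlier titles (14 treated, 10 untreated) the log2 fold change was 1.25 for Fos, 0.97 for Arc and 0.68 for Nr4a1, and among later titles (15 treated, 20 untreated) 0.08, 0.03 and 0.09. No gene of the 13735 passed for a difference between periods (0.0%). For Fos that difference was -1.16 (SE 0.55), with an unadjusted p of 0.0404 and an adjusted p of 0.9995 in edgeR's test.

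Markers of several other cell types were higher with tamoxifen in these libraries. All 8 oligodendrocyte genes, 6 of 8 Purkinje and interneuron genes, 5 of 8 astrocyte genes and 1 of 8 microglia and macrophage genes passed as higher, where 3.06% of all genes did, with medians of 1.69, 2.22, 0.79 and 0.27. None of 7 granule neuron genes passed, and all 7 were positive, with a median of 0.83. The mature cerebellum score had a median of 2.03 without tamoxifen and 4.95 with it, and summed CPM of its 23 genes ran from 185 to 2729 and from 167 to 14580. Gabra6, which defines mature granule neurons, was at 0 in 5 of the 59 tumours, and Pcp2, which defines Purkinje cells, in 17. With the score as a covariate, the log2 fold change was -0.13 for Fos, -0.48 for Arc, 0.04 for Nr4a1 and 0.01 for Egr1, none of them past the threshold, and 5 genes in all were called higher and 2 lower. Heat shock genes, which can mark handling stress, had a median of -0.01 over the 5 tested of 7, and none passed. Hspa1a and Hspa1b were dropped by the low-count filter, and handling stress was not tested.

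Among genes around the 10, 2 of 59 tested passed with tamoxifen, a share near the 3.65% of all genes. Of 16 tested feedback and brake genes 1 passed: Plk3, a stress-responsive kinase, fell by 0.41 on the log2 scale (SE 0.12, adjusted p = 0.0372 in edgeR), a call lost in 18 of the 59 fits that each left out 1 tumour. Of 21 upstream factors and kinases 1 passed: Camk2a, a calcium-dependent kinase of mature neurons, rose by 2.00 on the log2 scale (SE 0.55, adjusted p = 0.0295 in edgeR). Its call was lost without tamoxifen replicate 14, 17 or 19, at adjusted p of 0.118, 0.0526 and 0.0504, and its value fell to 0.21 with the mature cerebellum score as a covariate. None of 16 other immediate early regulators and none of 6 neuronal activity effectors passed, and their medians were -0.01 and 0.04.

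One tumour of the group without tamoxifen carried the highest level of 5 of the 10 genes. In no tamoxifen replicate 16, Fos was at 34.5 CPM, Fosb at 12.4, Nr4a1 at 40.3, Arc at 10.3 and Npas4 at 11.3, against medians over the 59 tumours of 4.27, 0.530, 6.27, 2.31 and 1.01 CPM. It was the highest of the 59 tumours for 5.36% of all tested genes, and for 3 of the 7 members among those tested (Fos, Nr4a1, Arc). Egr1 was the third highest there at 47.5 CPM and Junb the fourth at 19.1 CPM. Egr2 and Jun went the other way: Egr2 was at 2.89 CPM, rank 57 of 59, and Jun at 104 CPM, rank 54. So the Fos, Nr4a1 and neuronal genes were high in this tumour while Jun and Egr2 were low.

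A tumour was called outlying for a gene when it lay over 2 on the log2 CPM scale and over 5 scaled median absolute deviations above the median of the 59. By this rule 2 of the 10 genes had an outlying tumour, 1 of them (Nr4a1) among the 7 members tested, against 1.41% of all tested genes, and it was no tamoxifen replicate 16 for both. Fosb lay 3.99 above the median, or 7.00 deviations, and Nr4a1 2.63, or 5.04 deviations. Fos (2.94) and Npas4 (3.18) lay far above the median but under 5 deviations, at 4.11 and 3.87. The rule called 40 genes (0.291%) in this tumour. Its widest departures were in other genes: Kcnk12, a potassium channel, lay 6.91 above the median, Slc17a7, a glutamate transporter of granule neurons, 6.20, and Grm4, a glutamate receptor, 5.28, whereas Fos took place 155 among the 13735 genes.

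Some genes around the 10 were high in the same tumour and others low. Of 16 other immediate early regulators 6 had their highest level of the 59 there, where 5.36% of all tested genes did, among them Nr4a3, an orphan receptor related to Nr4a1, at 56.4 CPM against a median of 2.21, and Atf3, a stress-induced factor, at 13.2 against 2.97. Of 16 feedback and brake genes 4 did, with Gadd45b at 37.0 CPM against 6.74 and the ERK phosphatase Dusp5 at 236 against 76.5. Of 6 neuronal activity effectors 3 did, with Bdnf, a neurotrophin, at 58.6 CPM against 2.69 and Vgf, a secreted neuropeptide precursor, at 66.9 against 4.28. Of 5 heat shock genes none did. By the rule for an outlying tumour, 0 of 16, 0 of 16 and 1 of 6 genes of these lists were called. Low there were Myc at rank 57 of 59, Ier5 at 54, Socs3 and Gadd45g at 51 and Nptx2 at 46. These genes are named after their values were seen.

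Cell type markers in no tamoxifen replicate 16 were split. Mature granule neuron markers had a mean log2 CPM of 7.52, the highest without tamoxifen, where the median was 2.70. Purkinje and interneuron markers had a mean of -0.61, with 3 of 8 at 0 and a sum of 7.97 CPM, against a median sum of 28.2 without tamoxifen. Oligodendrocyte markers (2.01) and astrocyte markers (5.72) lay below the medians of that group, 2.52 and 6.93. Hedgehog tumour markers (7.95) were the lowest without tamoxifen. The part of granule neuron RNA in the high values was not tested.

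The next tumours by Fos had another marker pattern. Tamoxifen replicate 17 had 31.4 CPM of Fos but 12.8 CPM of Nr4a1, 1.09 of Fosb and 2.45 of Npas4, and 1 of its 10 genes was among the highest 3 tumours, against 13.6% of all genes. None of the 10 was highest of the 59 there, against 2.54% of genes, and none was outlying, against 0.00728% (1 gene). Tamoxifen replicate 29 had 26.4 CPM of Fos, 4.43 of Fosb, 28.4 of Junb, 67.2 of Egr1, 16.7 of Nr4a1 and 8.86 of Npas4. These 6 genes were among the highest 3 tumours there. Of the 7 members tested 4 were (Fos, Junb, Egr1, Nr4a1), against 4.0% of all tested genes, while Arc was at 4.08 CPM, rank 13. No gene was outlying in that tumour by the rule above (0.0%). Granule neuron, Purkinje and oligodendrocyte markers were all high in both tumours, with Purkinje and interneuron means of 7.30 in replicate 17 and 6.13 in replicate 29.

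**Figure D4:**
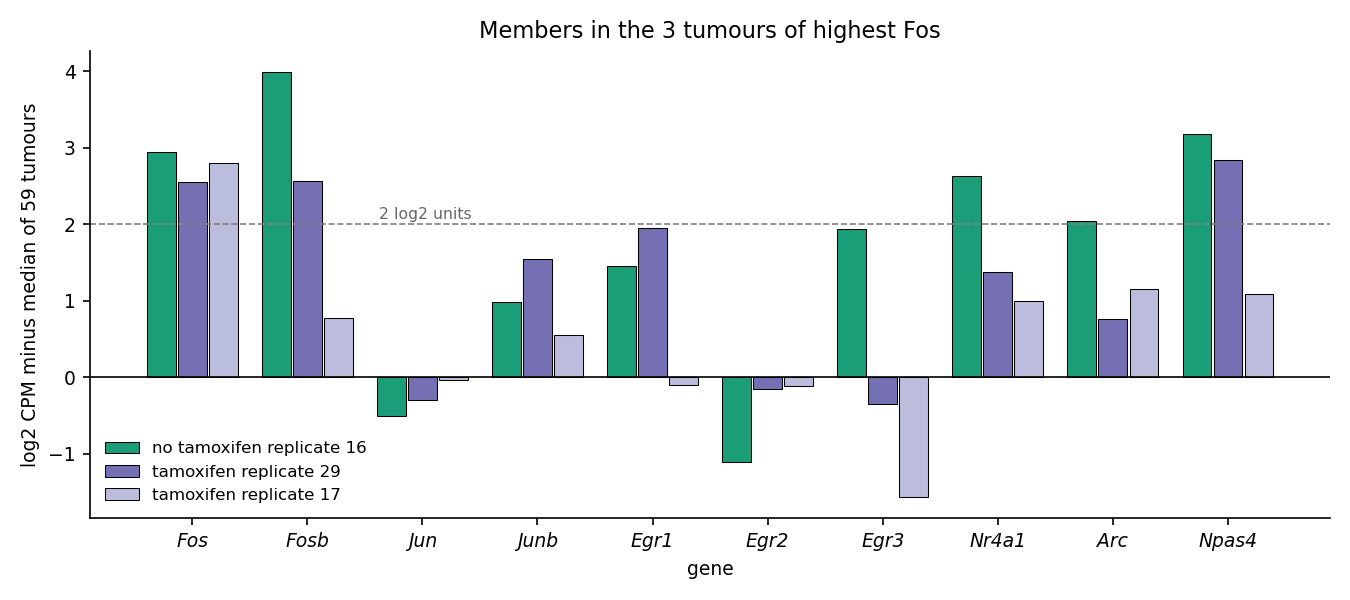
Distance of each gene from the median of the 59 Lazy Piggy tumours (log2 CPM), in the 3 tumours with the highest Fos. No tamoxifen replicate 16 reaches 3.99 in Fosb and falls below 0 in Jun and Egr2, and Jun and Egr2 are below the median in all 3.

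Across tumours, Fos went with Nr4a1 and Junb in both tamoxifen groups, and not with Jun. The relation of Fos with each of the other 9 genes was measured within each group on log2 CPM, with 100000 permutations and adjustment over the 9. In the treated tumours (n = 29) Fos and Nr4a1 had Pearson's r = 0.808 and Spearman's rho = 0.775, each with p = 1e-05, the smallest value the permutations can give, and an adjusted p of 4.5e-05. Without replicates 17 and 29, the farthest from the median of Fos, r was 0.773, and rho was 0.820 in earlier and 0.764 in later titles. Fos and Junb had r = 0.763 and rho = 0.804, with the same p, and r = 0.705 without those replicates, with rho of 0.912 and 0.589 by period.

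In untreated tumours (n = 30) Nr4a1, Junb and Egr1 passed with Fos by rank. Fos and Nr4a1 had r = 0.719 (p = 8e-05) and rho = 0.570 (p = 0.0012, adjusted 0.00837), and without replicates 16 and 8 r was 0.491. By period rho was 0.394 in 10 and 0.717 in 20 tumours. Fos and Junb had r = 0.630 (p = 0.00028) and rho = 0.552 (p = 0.00186, adjusted 0.00837), with r = 0.429 without those replicates and rho of 0.673 and 0.547 by period. Fos and Egr1 had r = 0.620 (p = 0.00014) and rho = 0.511 (p = 0.00417, adjusted 0.0125), falling to r = 0.434, with rho of 0.648 and 0.481 by period. In treated tumours Fos and Egr1 had rho = 0.288 (p = 0.133, adjusted 0.171) and r = 0.389 (p = 0.0378). The difference between treated and untreated tumours in these relations was not tested.

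By rank, Fosb and Npas4 passed with Fos in treated tumours and not in untreated ones, and the difference was not tested. With tamoxifen, Fosb had r = 0.631 (p = 0.00034) and rho = 0.542 (p = 0.00265, adjusted 0.00795) and Npas4 r = 0.593 (p = 0.00078) and rho = 0.461 (p = 0.0130, adjusted 0.0292). Without replicates 17 and 29 the r values were 0.505 and 0.394, and by period rho was 0.565 and 0.393 for Fosb and 0.521 and 0.400 for Npas4. Without tamoxifen, Fosb had r = 0.463 (p = 0.0288) but rho = -0.109 (p = 0.564), and r = -0.249 without replicates 16 and 8. Npas4 had r = 0.634 (p = 0.00151), rho = 0.375 (p = 0.0402, adjusted 0.0724) and r = 0.224 without them.

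Jun and Egr2, the pair that was low in no tamoxifen replicate 16, had no relation to Fos past the threshold in either group. For Jun rho was 0.012 (p = 0.952) with and -0.043 (p = 0.818) without tamoxifen, with r of -0.037 (p = 0.844) and -0.283 (p = 0.122). For Egr2 rho was -0.310 (p = 0.104) and -0.066 (p = 0.730), with r of -0.264 (p = 0.166) and -0.305 (p = 0.102). Without the farthest pair of tumours, r was 0.035 in both groups for Jun, and -0.277 and 0.061 for Egr2.

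Arc was related both to mature cerebellum markers and, with smaller values, to Fos in treated tumours; the difference between these relations was not tested. In treated tumours Arc and the mature cerebellum score had r = 0.808 and rho = 0.835, each with p = 1e-05, the smallest possible, and an adjusted p of 1e-04 over the 10 genes set against the score. Without replicates 15 and 4, the farthest in the score as scaled over the 59 tumours, r was 0.760, and without replicates 15 and 26, nearly as far, it was 0.796. By period rho was 0.846 in earlier and 0.861 in later titles. Arc with Fos gave r = 0.422 (p = 0.0227) and rho = 0.412 (p = 0.0269, adjusted 0.0484), r = 0.365 without replicates 17 and 29, and rho of 0.587 and 0.207 by period. In untreated tumours Arc and the score had r = 0.445 (p = 0.0138) and rho = 0.436 (p = 0.0164, adjusted 0.0820), and r = 0.306 without replicates 11 and 3. Arc with Fos had rho = 0.407 there (p = 0.0269, adjusted 0.0605) and r = 0.491 (p = 0.00577).

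Other genes differed in how they followed the score among treated tumours. Fos had r = 0.641 (p = 0.00013) and rho = 0.644 (p = 0.00025, adjusted 0.00125), with r = 0.577 without replicates 15 and 4, but rho was 0.793 in earlier and 0.332 in later titles. Junb had r = 0.479 (p = 0.00819) and rho = 0.502 (p = 0.0058, adjusted 0.0193), with rho of 0.684 and 0.114 by period. Egr2 ran opposite, with r = -0.473 (p = 0.00885) and rho = -0.476 (p = 0.00995, adjusted 0.0249), r = -0.447 without those replicates and rho of -0.587 and -0.325 by period. Npas4 had r = 0.066 (p = 0.738) and rho = -0.013 (p = 0.949). In untreated tumours no gene passed after adjustment, and Fos had rho = 0.248 (p = 0.186) and r = 0.092 (p = 0.635).

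**Figure D5:**
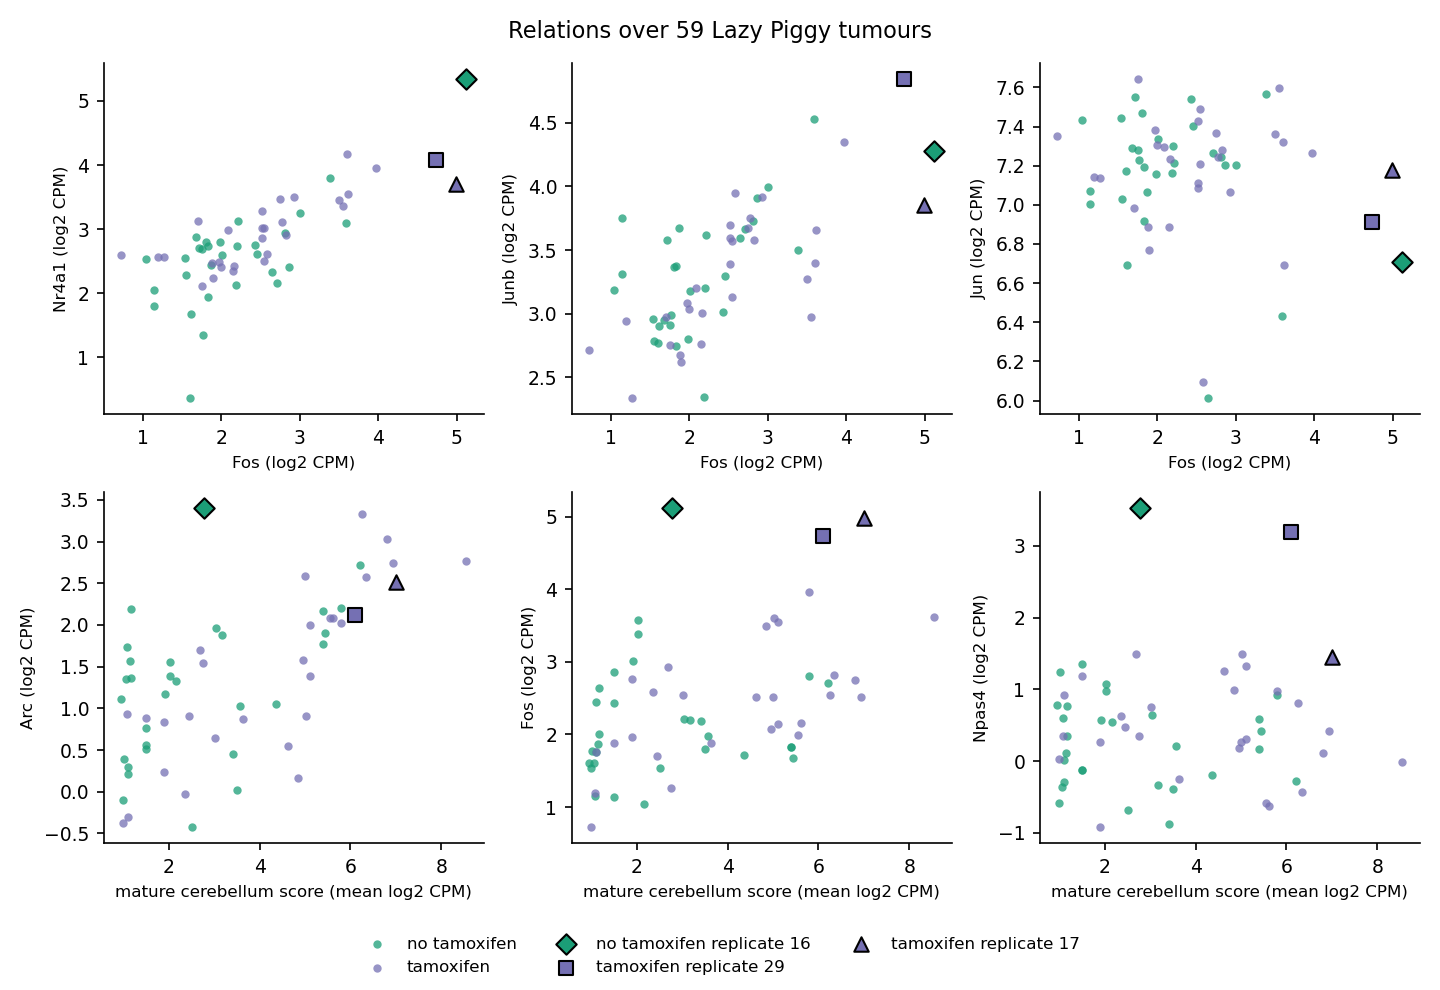
Pairs of levels (log2 CPM) over the 59 labelled Lazy Piggy tumours, coloured by group, with the 3 tumours of highest Fos as large symbols; the top row sets Fos against Nr4a1, Junb and Jun, and the bottom row the mature cerebellum score against Arc, Fos and Npas4. Nr4a1 climbs with Fos and Jun does not, and no tamoxifen replicate 16 has high Arc, Fos and Npas4 at a score of 2.78.

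The genes most like each of 4 members in pattern were sought among the 13735 tested genes, by Spearman's rho over the 59 tumours after removing each tamoxifen group's mean. Fos was most like Nr4a1 (0.711), then Sh2d5 (0.700), Junb (0.683), Mvp (0.662), which encodes the major vault protein, and Cebpb (0.651), an immediate early transcription factor, with Matk (0.638) and Zbtb7b (0.635) next. Nr4a1 was most like Fos, then Ackr3 (0.593), a chemokine receptor, Ptpn5 (0.591), a neuronal phosphatase, Ucp2 (0.589), Gpank1 (0.583) and Atp6v0c (0.580). Arc was most like Camkk2 (0.799), a calcium-dependent kinase kinase, Arhgef3 (0.776), Slc35f3 (0.746), Kcnk12 (0.745) and Hdac11 (0.737). Jun was most like Cog7 (0.602), 6530402F18Rik (0.584), Nhlh1 (0.584), a neuronal transcription factor, Fam161b (0.573) and Wdcp (0.561), none of them among the 10. These values describe 59 tumours that share their processing, and they carry no test.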

How the data were processed

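The values are raw read counts per gene, 1 table for each tumour model, as the authors deposited them. The aligner STAR 2.5.4b and the genome build mm9 are named per the submitters' processing notes; the counting step is not given in the sources used here. Rows naming construct parts stayed out. Gene rows with no symbol stayed in the scaling and tests, and rows with a symbol held 99.99% and 99.26% of counts. Genes passed edgeR's filterByExpr at a smallest count of 10. Counts were scaled by TMM and tested with edgeR 4.0.16's quasi-likelihood test (limma 3.58.1, R 4.3.3), with Benjamini-Hochberg adjustment over all genes tested and a threshold of 0.05. SE is the log2 fold change divided by the square root of F. The procedure was tested on simulated data. The knockout fit held title form as a covariate and the tamoxifen fit compared treated with untreated tumours. DESeq2 1.42.0 was an alternative. Single values used log2 CPM with a prior count of 2 and permutation tests (Python 3.11.15, scipy 1.17.1), exact in SmoM2 tumours and with 100000 resamples in Lazy Piggy tumours. Exon lengths came from GENCODE and promoter stretches from RefSeq, matched by symbol. Other alternatives were a prior count of 0.5, no filter, no or other covariates, title periods, and leaving out each library. The genes named are the 10 members, Fos, Jun, Nr4a1 and Arc with the 5 genes of most alike pattern, and genes of the fixed lists that passed; others are said to be chosen after their values were seen. The members and lists were chosen with earlier results of these data known.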

Additional observations from a re-analysis of the deposited data

Results flagged for a closer look

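The library with no treatment label was in no comparison, and it held the highest level of 7 of the 10 genes among all 60 Lazy Piggy libraries. The share of all genes highest in this library was not computed, so the count cannot be set against it. Its levels were 36.91 CPM for Fos, 25.71 for Fosb, 81.86 for Junb, 449.5 for Egr1, 72.4 for Egr3, 101.6 for Nr4a1 and 288.5 for Arc. The medians of the 59 labelled tumours were 4.273, 0.530, 9.575, 17.19, 0.522, 6.270 and 2.310 CPM, and their highest values 34.54, 12.38, 28.45, 70.82, 6.723, 40.32 and 10.32 CPM. Npas4 was the second highest at 9.621 CPM, Egr2 took rank 9 at 10.73 CPM, and Jun was at 64.67 CPM, close to the lowest labelled tumour at 64.27. Other genes set this library apart too. Atoh1 had no count where the lowest labelled tumour had 33.78 CPM, Gli1 was at 2.524 against a lowest value of 80.44, and Mki67 at 2.208 against 172.5. Gabra6 and Pcp2, which define mature granule neurons and Purkinje cells, had no count. Camk2a was at 3515 CPM, where the highest labelled tumour had 102.6. The library goes against its label as a medulloblastoma in these markers, and it entered no test.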

How the results depend on the processing

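No paired analysis was possible because the titles give the groups no shared replicate numbers. Tumours of both tamoxifen groups share 2 title dates, 5 tumours in all, and no block by these dates was run. In knockouts, DESeq2 called 3 genes higher and 7 lower where edgeR called 0, and every fit leaving out 1 library called 0. Without the title covariate the log2 fold change became 0.0043 for Fos, -0.061 for Fosb, -0.0095 for Jun, -0.16 for Junb and -0.47 for Egr3. With the library labelled wild-type replicate 3 counted as a knockout it was 0.47 for Fos and -0.10 for Junb. Without that library it was 0.65 for Nr4a1, 0.69 for Fosb and 0.97 for Egr3. Leaving out 1 library gave -0.66 to 0.21 for Fos (0.21 without that library), -0.013 to 0.20 for Jun, -0.060 to 0.32 for Junb and -0.39 to 0.31 for Egr2 (0.31 without wild-type replicate 1).

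With tamoxifen, DESeq2 called 633 genes higher and 136 lower. Earlier titles gave 0 and 0, later titles 2 and 0, and the mature cerebellum covariate 5 and 2. Leaving out 1 tumour gave 110 to 682 higher (110 without tamoxifen replicate 14, 682 without no tamoxifen replicate 11) and 28 to 131 lower (28 without tamoxifen replicate 14, 131 without no tamoxifen replicate 8). Tamoxifen replicates 17, 19 and 20 also moved the higher count, to 227, 254 and 269. The members called ranged from 0 to 2, being 2 without no tamoxifen replicate 16. Leaving out both tumours of highest Npas4, chosen after seeing the data, gave 0 members and 41 genes lower.

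Signs turned for values near 0. Jun was -0.00112 without the filter, -0.00337 with title period as a covariate, -0.087 in earlier titles and -0.020 to 0.034 leaving out 1 tumour. Junb was -0.15 and Egr2 -0.039 in later titles, and Junb was -0.013 without both tumours. Leaving out 1 tumour gave -0.053 to 0.10 for Junb and -0.029 to 0.086 for Egr2. With the mature cerebellum covariate Fos was -0.13, Jun -0.013, Junb -0.13 and Arc -0.48. The cause of these shifts was not tested.

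Genes related to Fos with tamoxifen went from 5 to 2 in earlier and 1 in later titles, and without tamoxifen from 3 to 0 and 1, where fewer tumours entered. Genes related to the mature cerebellum score went from 4 to 1 in later titles with tamoxifen, and from 0 to 1 in earlier titles without it. At 1.5 on the log2 scale and 4 deviations, 4 genes had an outlying tumour, 2 of them in tamoxifen replicate 29. Fosb, Egr3 and Npas4 rest on few counts in Lazy Piggy tumours, so small differences there were not detectable at this depth.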

Other observations

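Single high values lay in other tumours too, by genes other than Fos. Egr3 reached 6.723 CPM in no tamoxifen replicate 13 and Egr2 16.38 CPM in no tamoxifen replicate 19. In tamoxifen replicate 14, Egr1 was at its highest of the 59 tumours, 70.82 CPM, while Egr2 was at its lowest, 1.453 CPM, and the mature cerebellum score was the highest of the 59 at 8.554. None of these was outlying by the rule of 2 on the log2 scale and 5 deviations.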
